A study of Mus musculus with 7 samples.

Results

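Binding of retinoic acid receptor α (RARα) and retinoic acid receptor β (RARβ) was compared in the liver of C57BL/6 mice, males at 3 months of age, on a diet with retinoic acid (RA). All 44296 RARα peaks and all 29467 RARβ peaks called under RA were used, which is 73763 of the 245004 peaks in the 6 lists of the series. Peaks that met a peak of the other receptor by at least 1 bp were counted as shared, and the others as RARα-only or RARβ-only. The labels give 1 day of feeding for the RA diet and for the normal diet of the controls, whereas the methods of the study give a longer RA treatment, so the duration is not settled. Chromatin of wild-type liver was immunoprecipitated with an antibody against each receptor or against retinoid X receptor α (RXRα), which gave 6 ChIP libraries, 1 per receptor and diet, of single-end 35 bp reads. With 1 library per receptor there was no replicate check and no test, and the differences below describe these libraries. Intervals are 95% Wilson intervals on a share of peaks and cover counting error only. The read depth behind each list is not given for RARβ, so a missing peak was not detectable in that library, which is not the same as no binding. Whole liver was used, so peaks from different cell types of the liver cannot be told apart.

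The RARs are nuclear receptors that bind DNA with an RXR as partner and respond to RA, the acid form of vitamin A. Their classic response element is a direct repeat of a hexamer, often with 5 bases between the copies. Liver is the main store of vitamin A, and Cyp26a1, which encodes the enzyme that breaks down RA, and Rarb, which encodes RARβ itself, are well-known RA target genes.

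The promoters of Rarb and Cyp26a1 lay under shared peaks and are shown first because each held that element. The 2 promoters were chosen after their values were seen. All sequences are RefSeq promoters of GRCm38.p6 and run from 250 bases before to 50 bases after a gene start, read 5′ to 3′ along the gene. Capitals mark every copy of the hexamers AGGTCA or GGGTCA or AGTTCA or GGTTCA, or of their reverse complements. The Rarb promoter is chr14:16575427-16575726 on the minus strand and the Cyp26a1 promoter is chr19:37697558-37697857 on the plus strand.
Rarb: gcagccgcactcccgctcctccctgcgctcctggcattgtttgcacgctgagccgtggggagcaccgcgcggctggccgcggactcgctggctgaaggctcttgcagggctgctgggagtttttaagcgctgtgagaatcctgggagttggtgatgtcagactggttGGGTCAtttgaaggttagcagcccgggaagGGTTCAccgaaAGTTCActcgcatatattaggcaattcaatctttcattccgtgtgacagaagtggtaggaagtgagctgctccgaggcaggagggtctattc
Cyp26a1: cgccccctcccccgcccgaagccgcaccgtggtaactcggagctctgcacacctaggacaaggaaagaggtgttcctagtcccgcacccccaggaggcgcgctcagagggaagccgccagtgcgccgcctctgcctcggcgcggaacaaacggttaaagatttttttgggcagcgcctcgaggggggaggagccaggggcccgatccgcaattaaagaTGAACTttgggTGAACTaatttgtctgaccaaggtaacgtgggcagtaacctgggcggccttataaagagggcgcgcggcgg

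In Rarb, a direct repeat of GGTTCA with AGTTCA and 5 bases between them began at -53 from the start. In Cyp26a1, the repeat with 5 bases between the copies read on the opposite strand and began at -32. Among 17492 protein-coding genes with 1 RefSeq promoter each, 15 promoters (0.0858%) held such a repeat with 5 bases between the copies on either strand. Rarb and Cyp26a1 were the only members of these 15 with both receptors within 1 kb of the start, and the other 13 had neither receptor there. Such a repeat was thus present in 0.0283% of the 7069 promoters with both receptors (interval 0.00776 to 0.103). It was present in 0.151% of the 8622 promoters with neither (interval 0.0881 to 0.258). A match of letters describes the sequence and is not a measured site.

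The strongest promoters under RARα-only or RARβ-only peaks of the RA diet are shown next, so that they can be read against the pair above. Osgin1, a stress-response gene (chr8:119436897-119437196 on the plus strand), and H3f3a, which encodes histone H3.3 (chr1:180813556-180813855 on the minus strand), lay under RARα-only peaks. Evi5l, which encodes a Rab GTPase-activating protein (chr8:4166317-4166616 on the plus strand), and Ska2, which encodes a kinetochore protein (chr11:87109011-87109310 on the plus strand), lay under RARβ-only peaks. Glce, which encodes a heparan sulfate epimerase (chr9:62122560-62122859 on the minus strand), lay under one of the highest-ranked shared peaks.
H3f3a: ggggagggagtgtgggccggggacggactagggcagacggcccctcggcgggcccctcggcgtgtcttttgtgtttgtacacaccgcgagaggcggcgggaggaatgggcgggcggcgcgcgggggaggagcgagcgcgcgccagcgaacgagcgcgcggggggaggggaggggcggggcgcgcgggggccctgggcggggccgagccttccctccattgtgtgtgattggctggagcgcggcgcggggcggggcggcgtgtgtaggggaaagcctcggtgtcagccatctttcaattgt
Osgin1: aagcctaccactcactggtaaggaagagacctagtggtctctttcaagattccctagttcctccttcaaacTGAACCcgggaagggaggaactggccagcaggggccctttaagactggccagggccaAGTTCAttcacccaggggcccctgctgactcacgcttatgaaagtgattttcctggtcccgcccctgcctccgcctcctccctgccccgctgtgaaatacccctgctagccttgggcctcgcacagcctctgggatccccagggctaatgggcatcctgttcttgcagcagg
Evi5l: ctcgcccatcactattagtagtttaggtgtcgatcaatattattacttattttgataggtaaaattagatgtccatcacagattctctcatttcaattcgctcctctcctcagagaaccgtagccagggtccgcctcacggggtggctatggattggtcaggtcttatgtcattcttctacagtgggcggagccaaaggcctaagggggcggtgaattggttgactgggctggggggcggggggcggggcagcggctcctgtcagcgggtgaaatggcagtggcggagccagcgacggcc
Ska2: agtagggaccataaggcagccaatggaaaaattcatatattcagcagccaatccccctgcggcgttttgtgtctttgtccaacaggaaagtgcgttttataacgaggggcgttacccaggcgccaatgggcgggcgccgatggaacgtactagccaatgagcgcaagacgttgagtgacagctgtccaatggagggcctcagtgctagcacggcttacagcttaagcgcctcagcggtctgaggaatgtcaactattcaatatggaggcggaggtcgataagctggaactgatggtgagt
Glce: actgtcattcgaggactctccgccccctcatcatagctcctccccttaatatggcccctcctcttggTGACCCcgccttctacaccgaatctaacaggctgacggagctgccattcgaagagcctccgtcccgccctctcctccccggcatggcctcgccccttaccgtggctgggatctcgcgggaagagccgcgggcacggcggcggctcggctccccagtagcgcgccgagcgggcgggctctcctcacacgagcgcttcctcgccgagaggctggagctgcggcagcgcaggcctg

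None of these 5 windows held a direct repeat of the hexamers with up to 8 bases between the copies. Osgin1 held 2 single hexamers, Glce held 1, and H3f3a, Evi5l and Ska2 held 0 in these 300 bases.

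Most RARβ peaks lay on RARα peaks, whereas the RARα list was split almost evenly. Of the RARβ peaks, 21490 of 29467 were shared (72.9%, interval 72.4 to 73.4). Of the RARα peaks, 21992 of 44296 were shared (49.6%, interval 49.2 to 50.1). This left 22304 RARα-only and 7977 RARβ-only peaks. When the overlapping peaks were merged, the union held 51562 regions, of which 41.3% were called for both receptors, 43.3% for RARα only and 15.5% for RARβ only.

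The lists differed in length, and the sharing depended on it. When the RARα list was limited to its 29467 highest-scoring peaks, the share was 56.0% for RARα (interval 55.4 to 56.6) and 55.8% for RARβ (interval 55.2 to 56.3). The receptor-only counts then became nearly equal, with 12963 RARα-only and 13037 RARβ-only peaks. Lists of equal length with mostly one-to-one overlaps give near-equal shares and counts by construction. The limit fell at a score of 88.5, with 3 peaks tied there, of which 1 was kept. It removed 14829 RARα peaks, of which 9341 had been RARα-only and 5488 shared. The 5060 RARβ peaks that lost their partner had a median score of 89.8 in the RARβ list, against 99.4 for that whole list. Few calls hung on the 1 bp rule itself, since 253 RARβ peaks and 389 RARα peaks were shared by 1 bp but not by 25% of each peak.

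Shared peaks were wider, scored higher and lay nearer to genes than receptor-only peaks in both lists. The median width was 568 bp for shared and 376 bp for RARα-only peaks, and 731 bp for shared RARβ and 553 bp for RARβ-only peaks. The score is the peak caller's own value with no scaling from one library to the next, and it was compared within a list only. Its median was 152 for shared and 101 for RARα-only peaks in the RARα list. In the RARβ list it was 115 for shared and 72.1 for RARβ-only peaks. Where scores of different lists are printed side by side below, they give no order of strength between receptors or diets. The median distance from a peak midpoint to the nearest protein-coding gene start was 8.23 kb for shared RARα peaks against 21.8 kb for RARα-only peaks, and 8.27 kb for shared RARβ peaks against 22.4 kb for RARβ-only peaks.

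**Figure D1:**
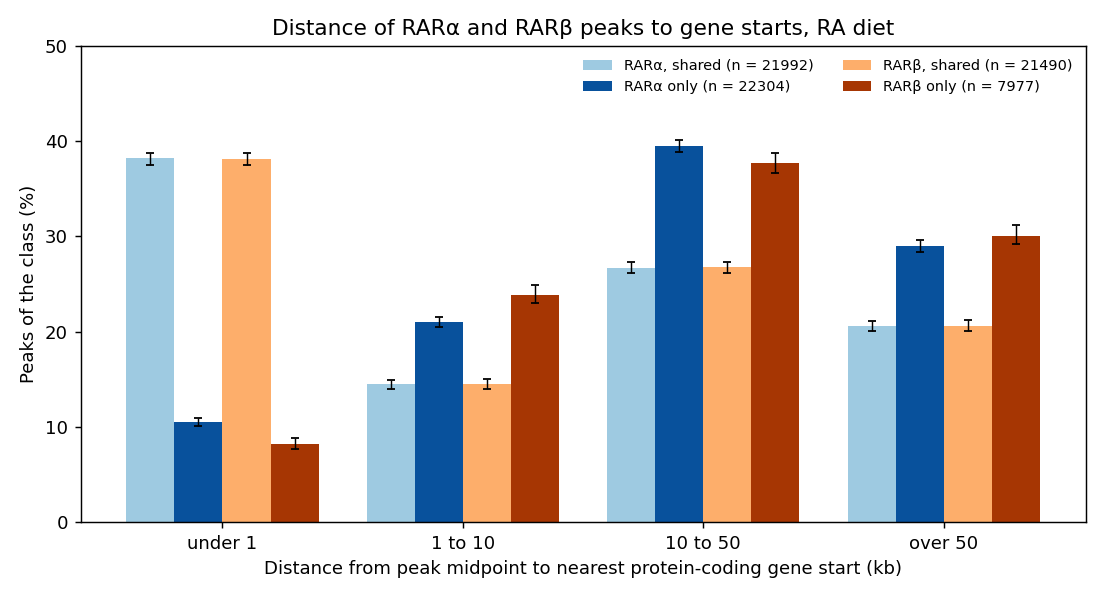
Share of each peak class (vertical axis, percent) by distance from the peak midpoint to the nearest protein-coding gene start (horizontal axis, kb), with 95% Wilson intervals. Within 1 kb lay 38.2% of shared RARα and 38.1% of shared RARβ peaks, against 10.5% of RARα-only and 8.24% of RARβ-only peaks.

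Gene starts were where the receptors coincided most. Among RARα peaks under 1 kb from a start, 78.2% were shared, against 40.5% at 1 to 10 kb, 40.0% at 10 to 50 kb and 41.2% beyond 50 kb. For RARβ peaks under 1 kb the share was 92.6%, against 62.0%, 65.7% and 64.8% in the same bins of distance. Both receptors thus showed 1 step, at 1 kb, and little change with distance beyond it. The sex chromosomes stood apart. The X chromosome had 1.84 RARα peaks per RARβ peak and 39.1% of RARα peaks shared, whereas the autosomes had 1.45 to 1.55 and 48.2% to 52.6%. The RARβ share on X, 69.6%, lay within the autosomal range of 69.1% to 75.7%. Chromosome Y, with 58 RARα and 66 RARβ peaks, had a ratio of 0.879, and 55.2% of its RARα and 48.5% of its RARβ peaks were shared.

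At shared sites the RARα peak usually sat inside or near the middle of a broader RARβ peak. In 20424 cases exactly 1 RARα peak met exactly 1 RARβ peak. Their midpoints were 69.0 bp apart at the median and within 100 bp in 65.5% of pairs. The RARβ peak was the wider one in 76.5% of pairs, by a median ratio of 1.24. The RARα peak lay wholly inside the RARβ peak in 48.2%, and the reverse was rarer.

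**Figure D2:**
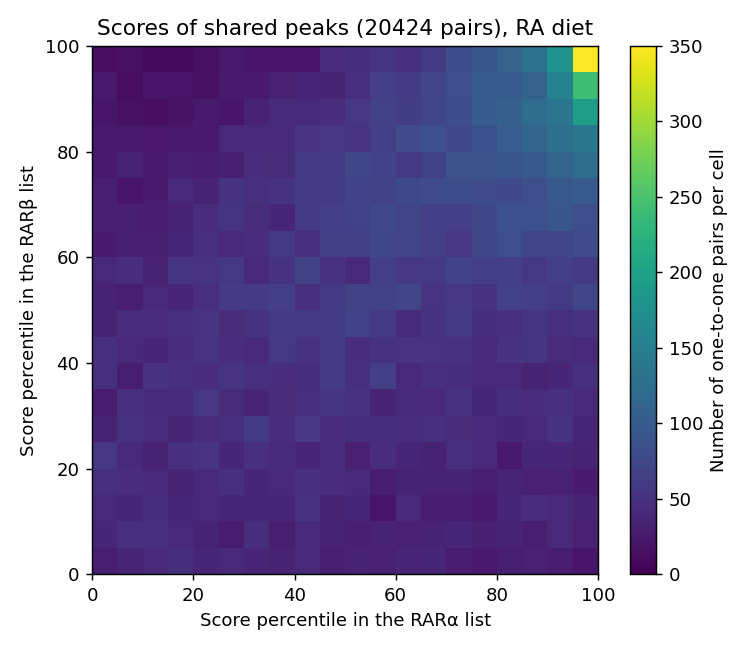
One-to-one pairs of RARα and RARβ peaks by score percentile within the RARα list (horizontal axis) and the RARβ list (vertical axis), where colour gives the number of pairs per cell of 5 by 5 percentiles. The fullest cells are at the top right, where both receptors scored high, and pairs fill the rest of the plane, with a Spearman correlation of 0.319.

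A strong peak for one receptor was seldom equally strong for the other. Over the 20424 pairs the Spearman correlation of the scores was 0.319, a description across sites of 1 library per receptor. It was 0.330 over the 7614 pairs within 1 kb of a start and 0.214 over the 9838 pairs beyond 10 kb. Of the 1000 highest-scoring RARα peaks 90.3% met some RARβ peak, but 17.5% met 1 of the 1000 highest-scoring RARβ peaks. In the other direction, 97.6% of the 1000 highest-scoring RARβ peaks met some RARα peak. The share between lists of equal size rose with the size, to 31.2% at 5000, 40.1% at 10000 and 50.1% of RARα peaks at 20000.

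The pairs in which one receptor ranked high and the other low differed in position. In 918 pairs both scores were in the upper 10% of their lists, and 70.5% of these lay within 1 kb of a start. In 759 pairs the RARα score was in the upper 10% and the RARβ score in the lower 50%, and 45.1% of these lay within 1 kb of a start (interval 41.6 to 48.6). In 421 pairs the ranks were the other way round, and 20.0% of these lay within 1 kb of a start (interval 16.4 to 24.0). The pairs strong for RARβ met an RXRα peak under RA in 95.5%, those strong for RARα in 81.8% and those strong for both in 98.5%. Over all 20424 one-to-one pairs, 37.3% lay within 1 kb of a start and 91.8% met an RXRα peak.

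**Figure D3:**
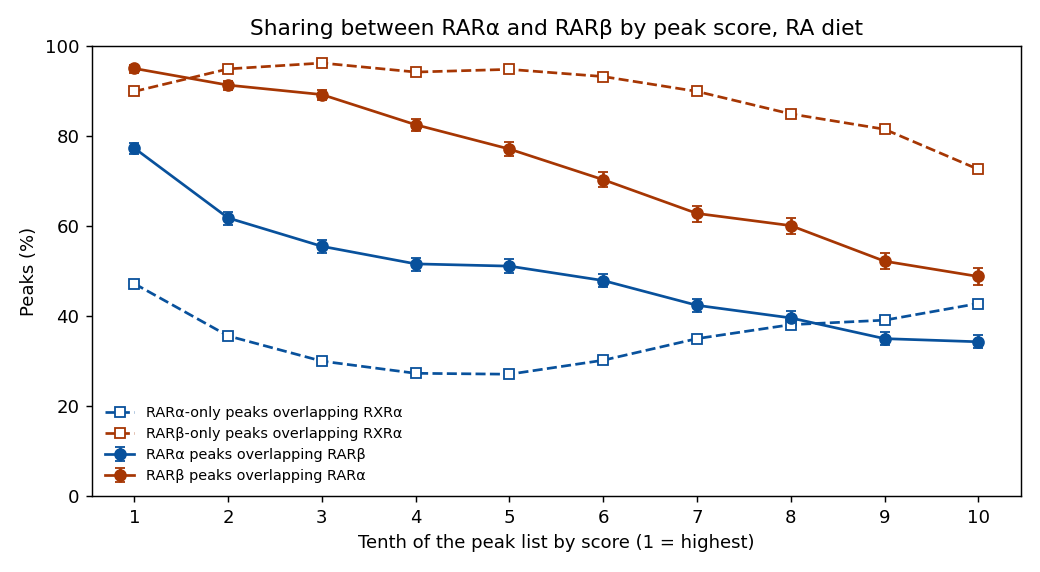
Share of peaks (vertical axis, percent) in 10 equal groups of each list ordered by score (horizontal axis, 1 is the highest). Solid lines give peaks that overlap the other RAR, with 95% Wilson intervals, falling from 77.3% in the first group to 34.3% in the last for RARα, and for RARβ from an interval of 94.1 to 95.7 in the first group to 48.8% in the last, and dashed lines give receptor-only peaks that overlap an RXRα peak.

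The receptor-only peaks differed in their overlap with RXRα, the DNA-binding partner. Under RA, 85.9% of RARβ-only peaks overlapped an RXRα peak (interval 85.1 to 86.6), against 35.1% of RARα-only peaks (interval 34.5 to 35.7). The shared peaks were close to the RARβ-only peaks, with 91.8% for RARα and 92.1% for RARβ. The difference was present at each score level. Among the score groups it was smallest in the lowest-scoring one, with 72.6% of RARβ-only and 42.8% of RARα-only peaks. In the middle, at the fifth group, it was 94.8% against 27.1%. With lists of equal length the shares were 88.9% for RARβ-only and 31.8% for RARα-only peaks. Among peaks beyond 10 kb from a start with a score of at least 100, the shares were 97.8% and 28.0%. The difference was much smaller within 1 kb of a start, with 63.3% of RARβ-only and 45.3% of RARα-only peaks. With a score of at least 100 there, it was 66.9% (interval 59.7 to 73.3) against 52.3% (interval 49.6 to 55.0).

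**Figure D4:**
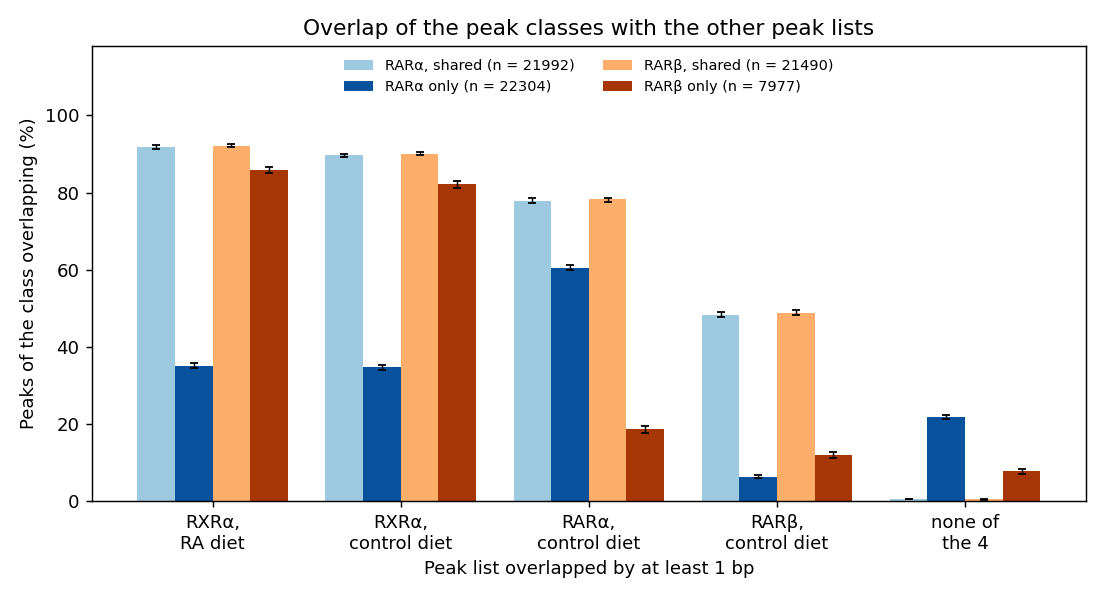
Share of each peak class (vertical axis, percent, 95% Wilson intervals) that overlaps the RXRα list under RA or one of the 3 control diet lists (horizontal axis), and the share found in none of these 4 lists. RARα-only peaks often had a RARα control peak (60.4%) and seldom an RXRα peak (35.1%), and RARβ-only peaks showed the reverse, with 11.9% for RARβ control and 85.9% for RXRα.

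The receptor-only classes also differed in what was called at the same site under the control diet. Of RARα-only peaks, 60.4% overlapped a RARα peak of the control diet. Of RARβ-only peaks, 11.9% overlapped a RARβ peak and 18.6% a RARα peak of the control diet, while 82.2% overlapped an RXRα peak of that diet. The control RARβ list was the shortest of the 6, with 14968 peaks, against 35521 for RARα and 61128 for RXRα, and its part in these shares was not tested. The commonest kind of RARβ-only peak had RXRα under RA and no RARβ peak under the control diet, with 6053 peaks (75.9%). The commonest kind of RARα-only peak had RARα under both diets and no RXRα under RA, with 9094 peaks (40.8%) and a median score of 147. A further 4876 RARα-only peaks (21.9%) and 7.71% of RARβ-only peaks overlapped no peak of the other 4 lists.

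Receptor-only peaks were often near a peak of the other receptor without touching it. A RARα peak lay within 10 kb of 61.0% of RARβ-only peaks, and a RARβ peak lay within 10 kb of 39.8% of RARα-only peaks. Within 1 kb the shares were 13.9% and 7.48%. The median gap was 6.78 kb from a RARβ-only peak to the nearest RARα peak and 15.1 kb from a RARα-only peak to the nearest RARβ peak. The RARα list was the longer one, and the part of list length in these differences was not tested.

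The 10 highest-scoring RARα-only peaks within 10 kb of a gene start all had a RARα peak under the control diet as well. They lay near Gm11634 (score 963), Mup5 (859), Psen2 (781), Adora1 (745), Mmp2 (715), H3f3a (696), Osgin1 (689), Rhou (681), Echdc3 (672) and Scnn1g (659). Those at Gm11634, Mup5 and H3f3a also met a RARβ peak of the control diet, with scores of 66.1, 88.2 and 74.5. Mup5 belongs to the major urinary protein family, whose near-identical copies make the place of reads uncertain. The peaks at H3f3a, Osgin1, Rhou and Scnn1g were at the promoter, from -185 to 54 bp of the start. At Osgin1 the RARα score was 689 under RA and 188 under the control diet, the RXRα peak under RA scored 59.4, and the nearest RARβ peak was 3.12 kb away. At Rhou, which encodes a small GTPase, RARα scored 681 under RA and 581 under the control diet, with RXRα at 207. At Mmp2, which encodes a matrix metalloproteinase, the peak at -9009 bp from the start had no RARβ peak within 245 kb. The strongest RARα-only peak at any distance lay at -17.1 kb from the start of Stab2, a scavenger receptor gene of sinusoidal endothelial cells, with a score of 1168. It met a RARβ peak of the control diet (76.4). Another RARα-only peak, with a score of 906, lay at -68.0 kb from the start of Arhgap29, which encodes a GTPase-activating protein.

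Of the 10 highest-scoring RARβ-only peaks within 10 kb of a gene start, 9 had a RARβ peak under the control diet and 7 had a RARα peak there that was not called under RA. They lay near Evi5l (score 1404), Ska2 (878), Cyp26a1 (845), Hemk1 (550), Trp53bp1 (461), Mt2 (458), Zfp970 (456), Cchcr1 (446), Brsk2 (433) and 2610008E11Rik (427). At Evi5l the RARβ score was 1404 under RA and 646 under the control diet, and RARα scored 107 under the control diet with no RARα peak within 25.4 kb under RA. At Ska2 the RARβ scores were 878 and 518, and the RARα peak of the control diet scored 210. At Trp53bp1, a DNA damage response gene, RARβ scored 461 under RA and 82.4 under the control diet, and RARα scored 110 under the control diet. Beside these promoters, the peak at -1197 bp from the start of Mt2, a metallothionein gene, had an RXRα score of 1048 under RA and lay 216 bp from a RARα peak that it did not touch.

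The 10 highest-ranked shared peaks near genes included those at Txndc11, Tmem125, Gm32584, Glce, Uspl1, Denr, Marchf3, Kpna1 and Bcas3. At Txndc11 the score was 1718 for RARα and 1044 for RARβ, and at Tmem125 it was 1162 and 1181. At Denr, a translation reinitiation factor gene, it was 767 and 643. All 10 were called in all 6 lists. At any distance, 9 RARα and 7 RARβ peaks scored 3100 or more, so the top of both lists is tied. The 3 shared peaks taken from this tie scored 3100 for both receptors, lay nearest to Col19a1, Rab10 and Galc and far from their starts, and scored 2831 to 3100 in the other 4 lists, which were made with other antibodies or the other diet.

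At Cyp26a1 the receptors were found at different sites of the same gene. Both were called at the promoter, where RARα scored 490 and RARβ 138. Only RARβ was called at -1663 bp (359) and at 4798 bp after the start (845), beyond the end of the gene, and RXRα was called at both with scores of 758 and 1510. Only RARα was called at 6308 bp (253), where no RXRα peak was found. Under the control diet RARα had peaks at all 4 places, with scores of 101, 79.5, 63.3 and 86.5 in the order of the genome. RARβ had control peaks at the 2 places where it was alone under RA, with scores of 100 and 102. The edge of the RARβ-only peak after the gene was 685 bp from the nearest RARα peak under RA.

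Rarb carried 1 peak of each receptor, both over the promoter printed above. RARα scored 481 there under RA and 265 under the control diet, and RARβ scored 788 and 124. Rarg, which encodes the third RAR, had 3 RARα and 2 RARβ peaks. The RARβ peak at -612 bp (336) overlapped RARα peaks at -723 bp (131) and 72 bp (96.1), while a RARα peak at 7112 bp (253) and a RARβ peak at 5813 bp (69.6) stood alone. Rara, which encodes RARα, had 7 RARα and 4 RARβ peaks within 10 kb of its 5 annotated starts, of which 2 of each overlapped. Its unshared RARα peaks scored 64.1 to 260, and its unshared RARβ peaks scored 89.9 and 127.

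Genes of bile acid and lipid metabolism mostly carried shared peaks. Nr0b2, which encodes the bile acid-responsive repressor SHP, had 4 RARα and 3 RARβ peaks, all shared. Cyp7a1, the rate-limiting enzyme of bile acid synthesis, had a shared promoter peak scored 199 for RARα and 117 for RARβ, and a RARβ-only peak of 76.4 at -2980 bp. Abca1, a cholesterol exporter gene, had 2 shared peaks, of which the promoter peak scored 592 for RARα and 184 for RARβ. Fgf21, a fasting hormone gene, had 2 shared peaks. In the RARα list the peak at -8225 bp (244) scored above the one at 4333 bp (75.5), whereas in the RARβ list the peak at 4425 bp (153) scored above the one at -8197 bp (120).

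Counted by genes, 64.3% of 21536 protein-coding genes had a RARα peak and 55.7% a RARβ peak within 10 kb of a start. Both were present at 11536 genes (53.6%), RARα only at 2307 (10.7%) and RARβ only at 467 (2.17%). With lists of equal length these became 10931 (50.8%), 1660 (7.71%) and 1072 (4.98%). Of the genes with both, 11026 (95.6%) had a shared peak, while at 510 the receptors were near the gene at separate sites. An additional RARα-only peak was present at 4462 of them (38.7%) and an additional RARβ-only peak at 2285 (19.8%). An RXRα peak under RA was present at 96.4% of genes with both, 74.5% of genes with RARβ only and 53.6% of genes with RARα only, against 11.0% of genes with neither.

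**Figure D5:**
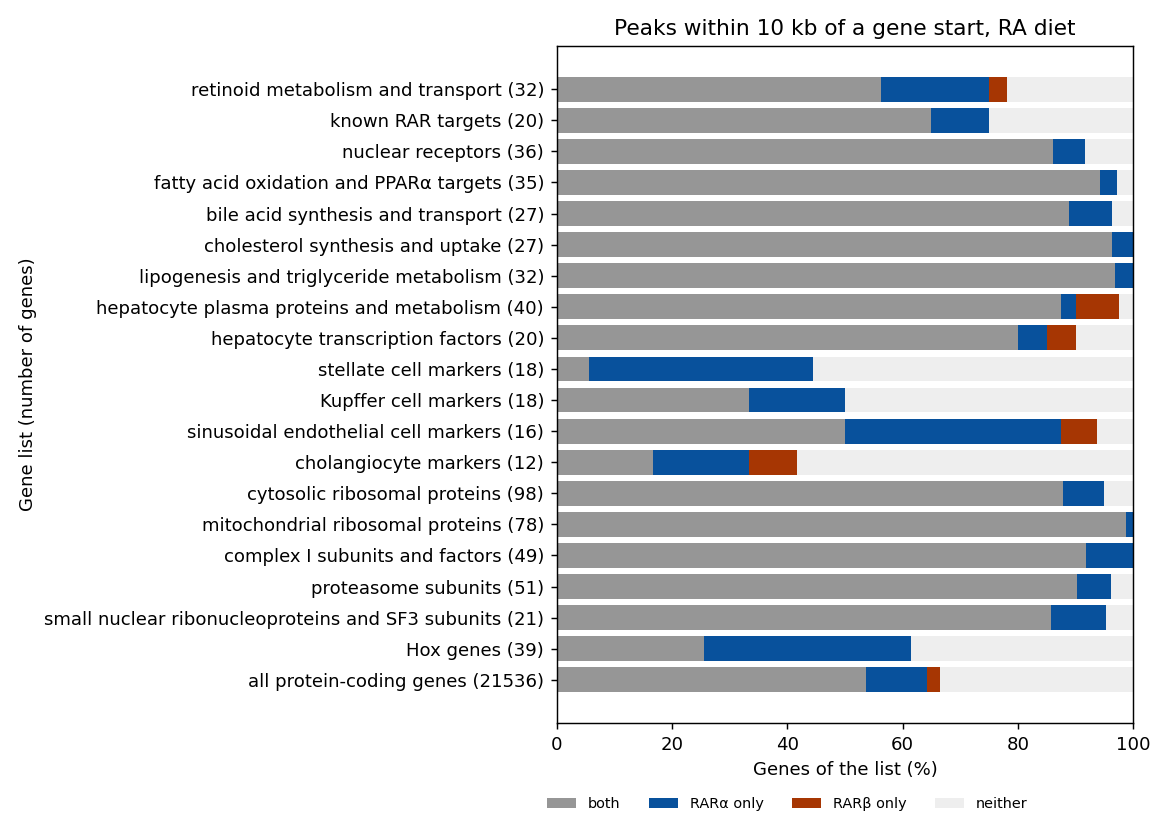
Share of genes (horizontal axis, percent) in 19 gene lists and in all protein-coding genes (vertical axis, number of genes in brackets) with peaks of both receptors, of RARα only, of RARβ only or of neither within 10 kb of a start. RARα-only genes form 38.9% of the stellate cell list and 35.9% of the Hox list, against 10.7% of all genes. Genes with neither receptor form 55.6% and 38.5% of these lists, against 33.6% of all genes.

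The gene lists below come from general knowledge and are described by counts beside the shares of all genes. Metabolic and housekeeping lists were mostly bound by both receptors, against 53.6% of all genes. Both were present at 33 of 35 genes of fatty acid oxidation and PPARα targets, 26 of 27 of cholesterol synthesis and uptake, 31 of 32 of lipogenesis and triglyceride metabolism and 24 of 27 of bile acid synthesis and transport. The same held for 77 of 78 mitochondrial ribosomal protein genes, 45 of 49 complex I genes, 46 of 51 proteasome genes, 18 of 21 spliceosome genes, 86 of 98 genes of the cytosolic ribosomal protein pattern and 31 of 36 nuclear receptor genes. The 7 RARα-only members of the ribosomal pattern included Rpl39 (234), while Rps6ka1, Rps6ka3, Rps6ka4 and Rps6kc1 are kinase-family genes that share its letters. RARα-only members of these lists included Psmd11, a proteasome subunit gene (461), Ndufa4l2, a complex I-related gene (386), the complex I subunit gene Ndufb4 (334) and Snrpb, a spliceosome gene (252).

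Each metabolic list had 1 or 2 RARα-only genes. They were Acot2, an acyl-CoA thioesterase gene (145), Pmvk of the mevalonate pathway (256), Me1, which encodes malic enzyme (134), and the bile acid transporter genes Slc51b (281) and Slco1a1 (53.8). Among nuclear receptor genes the RARα-only members were Thra (91.3) and Pparg (70.9). None of these metabolic lists had a RARβ-only member, where 2.17% of all genes did, and the RARα-only share of all genes was 10.7%. With lists of equal length, 5 of the 35 fatty acid oxidation genes had RARβ only (14.3%), against 4.98% of all genes. The cholesterol, lipogenesis and bile acid lists then had 1 such gene each (3.12% to 3.70%).

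Within 10 kb of a start, RARβ-only members were few in every list. Of 40 genes for plasma proteins and other hepatocyte functions, 35 had both receptors, 3 had RARβ only (7.50%) and Cyp2c29 had RARα only, against 2.17% of all genes with RARβ only. The 3 were Ass1, a urea cycle gene (259), Hpd, a tyrosine catabolism gene (111), and Serpina1a, an α1-antitrypsin gene of a family with near-identical copies (64.9). All 3 peaks overlapped RXRα. With lists of equal length the count was 7 of 40 (17.5%), against 4.98%. Counted within 1 kb of a start, 15 of the 40 had RARβ only (37.5%), against 2.32% of all genes, and 15 had both. Of the 40 genes, 36 had a RARα peak within 10 kb. The other list members with RARβ only within 10 kb were Dbp, a circadian transcription factor gene (140), Rbp4, which encodes the retinol carrier of plasma (126), Prom1 (112) and Fcgr2b (74.0).

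Genes of retinoid metabolism were mixed. Of 32, both receptors were near 18 (56.2%, against 53.6% of all genes), RARα only near 6 (18.8%, against 10.7%) and RARβ only near Rbp4 (3.12%, against 2.17%). The RARα-only members included the aldehyde dehydrogenase genes Aldh1a3 (234), Aldh1a7 (175) and Aldh1a2 (70.7), Rdh13 (67.8), and Lrat, whose product makes the storage ester of retinol (97.6). Of 20 known RAR targets, 13 had both (65.0%) and 2 had RARα only, near the share of all genes, among them Lrat. The peaks at Aldh1a2 and Aldh1a7 overlapped RXRα, and those at Lrat, Aldh1a3 and Rdh13 did not.

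Markers of other liver cell types and Hox genes varied from list to list. Of 18 stellate cell markers, 1 had both (5.56%, against 53.6% of all genes) and 7 had RARα only (38.9%, against 10.7%). The other 10 had neither (55.6%, against 33.6%). A RARα peak was thus near 8 of the 18, where 64.3% of all genes had one, and a RARβ peak near 1, where 55.7% did. The 7 with RARα only were Pdgfra (342), Nes (263), Col1a1 (162), Vim (103), Lrat (97.6), Colec11 (68.7) and Hgf (56.0), and 2 of the 7 peaks overlapped RXRα. At equal list length 5 of the 18 had RARα only (27.8%), against 7.71% of all genes. Of 16 sinusoidal endothelial markers, 8 had both and 6 had RARα only, namely Pecam1 (278), Mrc1 (141), Stab1 (140), Cdh5 (120), Kdr (83.7) and Stab2 (56.6). Of 18 Kupffer cell markers, 6 had both and C1qa, C1qb and C1qc had RARα only with scores of 60.1 to 69.0, and none of these 3 kept the call at equal list length. Of 12 cholangiocyte markers, 2 had RARα only, among them Spp1 (95.1). At equal list length RARα only was found at 4 of 16 endothelial and 1 of 12 cholangiocyte markers (8.33%). Peaks near a marker gene are binding and not expression, and they name no cell type. Of the defining hepatocyte markers Cps1, Hnf4a, Apoa1 and Ttr carried both receptors, and Alb had neither within 10 kb.

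Of 39 Hox genes, 14 had RARα only (35.9%, against 10.7% of all genes) and 10 had both (25.6%, against 53.6%). RARβ only was found at 0 and neither at 15 (38.5%, against 33.6%). A RARα peak was thus near 24 of the 39, where 64.3% of all genes had one, and a RARβ peak near 10, where 55.7% did. Within 1 kb of a start the RARα-only share was 5.13%, against 8.63% of all genes, so the count rests on peaks farther from the starts. The 14 genes share peaks because the Hox clusters are dense, so that their best RARα peaks were 7 distinct peaks, all kept at equal list length. The strongest was near Hoxc8 (537), and the others scored 122 to 273. RXRα overlapped the best peak of 4 of the 14 genes, and a RARα control peak that of 13.

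Long genes held several receptor-only peaks. Within the gene span extended by 10 kb, Rora, which encodes an orphan nuclear receptor, held 19 RARα-only peaks among 33 RARα peaks, and Pde4d, a phosphodiesterase gene, held 17 among 26. Agap1, Arhgap26 and Kalrn held 14 each. Of RARβ-only peaks, Bcas3 held 11 among 16 RARβ peaks, Vps13d 10 among 31, Foxp1 9 among 17, Rbpms 9 among 15 and Arhgap26 8 among 33. These spans are 147 to 1302 kb long, and a count over a span rises with its length.

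The promoter sequences of the classes differed in base composition and in some short motifs. Of the 17492 RefSeq promoters, 7069 had both receptors within 1 kb of the start, 1405 RARα only, 396 RARβ only and 8622 neither. The median GC content was 61.7%, 60.0%, 57.7% and 49.7% in this order. The ratio of observed to expected CpG, which is high in CpG islands, was 0.811, 0.678, 0.616 and 0.245. At least 1 of the receptor hexamers was present in 37.1%, 38.1%, 41.2% and 44.5%, against 40.9% of all promoters.

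CCAAT, the box bound by NF-Y, was present on either strand in 42.1% of promoters with both receptors, 30.7% with RARα only (interval 28.4 to 33.2), 49.0% with RARβ only (interval 44.1 to 53.9) and 37.8% with neither, against 39.2% of all. The ETS core CCGGAAG was present in 22.6% of promoters with both receptors, 11.8% with RARα only, 10.4% with RARβ only and 3.26% with neither, against 11.9% of all. The NRF1 core GCGCATGC was present in 6.48%, 3.77%, 4.55% and 1.18%, against 3.61% of all. For the ETS core the intervals of RARα only (10.2 to 13.6) and RARβ only (7.72 to 13.7) overlapped. The same held for the NRF1 core (2.90 to 4.90 and 2.89 to 7.07). The classes also differed in GC content, whose part in the motif shares was not tested. Direct repeats with 1 base between the hexamers were present in 32 of all 17492 promoters (0.183%). Of these, 17 had both receptors (0.240% of that class) and 10 had neither (0.116%). The 396 RARβ-only promoters held 4, at Akt1, Phactr2, Sec31b and Smyd5 (1.01%, interval 0.393 to 2.57). The 1405 RARα-only promoters held 1, at Amd2 (0.0712%, interval 0.0126 to 0.402). Direct repeats with 2 bases between the hexamers were present in 17 of all promoters. Of these, 7 had both receptors, 8 had neither, Slc7a7 and Tinagl1 had RARα only and 0 had RARβ only.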

How the data were processed

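The authors aligned the ChIP-seq reads to mm10 with Bowtie and called peaks with MACS, as their methods state for RARα and RXRα. Whether the RARβ libraries were treated in the same way is not stated. The labels also name CASAVA 1.4. The authors deposited 1 peak list per library, whose score column is the caller's value for each peak and is not normalized between libraries, so it was ranked within a list only. The lowest score was 50.0 in both lists. The build was checked on the lists, whose highest end on chromosome Y was 90842021, past the end of that chromosome in NCBIM37.

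Overlaps and distances were computed with Python 3.11.15 (numpy 2.4.6, pandas 2.3.3) and tested on simulated data against bedtools 2.31.1. Gene starts came from RefSeq tables of GRCm38.p6, with strand from the RefSeq promoters (17492 genes) or, by symbol, from GENCODE M1 (4044 genes). Of 21887 protein-coding genes, 351 without a strand were left out. A peak was assigned by its midpoint, and a gene had a receptor when a midpoint lay within 10 kb of one of its starts. The position within a gene (exon, intron, UTR) was not analysed here, and the input library was not used here.

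The named genes were those of the 10 highest-scoring peaks of each class within 10 kb of a start, the 3 highest at any distance, the 5 spans with the most receptor-only peaks, list members with 1 receptor only, and Cyp26a1, Rara, Rarb, Rarg, Nr0b2, Cyp7a1, Abca1 and Fgf21. Shared peaks were ranked by the sum of their ranks in both lists. The members and lists were chosen with earlier results of these data known. The alternatives changed the overlap, list length, score limit, gene set and distance. A score limit on 1 list at a time was added after seeing the data. A few genes that this rule selects are not reported here.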

Additional observations from a re-analysis of the deposited data

How the results depend on the processing

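All values come from 1 library per receptor, so they have no replicate check, and the unknown read depths limit what a missing peak means. No paired analysis was possible because each group has 1 sample and no result comes from a test. With an overlap of 25% of each peak, 72.1% of RARβ and 48.8% of RARα peaks were shared, 8.98% of RARβ-only peaks lay within 1 kb of a start and 35.9% of RARα-only peaks met RXRα. With lists of equal length, 55.8% of RARβ and 56.0% of RARα peaks were shared, the same as with the tied peaks left out (55.8% and 56.0%). RARα-only and RARβ-only peaks then lay within 1 kb of a start in 11.3% and 9.07%, and met RXRα in 31.8% and 88.9%, and 1072 genes had RARβ only. With a score of at least 100 in both lists, 68.8% of RARβ and 38.4% of RARα peaks were shared, 19.9% of RARα-only and 11.1% of RARβ-only peaks lay within 1 kb of a start, 46.8% and 96.1% met RXRα, and 3902 genes had RARα only. With that limit on 1 list against the full other list, chosen after seeing the data, 87.1% of RARβ and 57.5% of RARα peaks were shared. With genes of all kinds, 13.5% of RARα-only and 10.6% of RARβ-only peaks lay within 1 kb of a start, and 4229 genes had RARα only and 939 RARβ only. At equal length the shared percentages and the receptor-only peak counts (12963 RARα-only and 13037 RARβ-only) were nearly equal for both receptors. Equal lengths and mostly one-to-one overlaps fix this in advance. For the receptor-only counts of some gene lists the order of the receptors turned. The cause of the other moves was not tested.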
